A study of Mus musculus with 18 samples.

Results

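The 10 genes described here are a set associated with the gamma-delta T-cell lineage: Sox13, Sox4, Maf, Zbtb16, Rora, Blk, Il17rb, Il1r1, Trdc and 5830411N06Rik. They were taken by name, as a set chosen with earlier results of these data known. All 10 were matched by gene identifier among the 22619 genes of the count table, of which 17934 had at least 1 read. RNA was sequenced from sorted mouse thymocytes of 2 stages: DN3 cells, which lack CD4 and CD8 and rearrange the beta, gamma and delta receptor genes, and DP cells, which come after them and show CD4 together with CD8. All cells came from wild-type thymi that had been transplanted 28 days earlier. In turnover the thymocytes of a graft are replaced by progenitors that keep arriving from outside, and in autonomy the graft sustains itself from cells it already holds. The DN3 turnover and DP turnover groups held 4 libraries each (RP1140A, RP1140B, RP1141A and RP1141B), and the DN3 autonomy and DP autonomy groups held 5 libraries each. The sources used here do not give the hosts, strain, sex or age, nor whether gamma-delta receptor-positive cells were kept out of the DN3 sort.

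Gamma-delta T cells arise in the thymus from the same double-negative precursors as alpha-beta T cells, and the choice is made around the DN3 stage. HMG-box factors such as Sox13 and Sox4, with c-Maf (Maf), RORalpha (Rora) and PLZF (Zbtb16), are known for their part in programming gamma-delta cells that make IL-17 or behave as innate-like cells. The kinase Blk, receptors for IL-25 (Il17rb) and IL-1 (Il1r1), and the scavenger receptor family protein 5830411N06Rik, also called Scart2, mark or serve the same IL-17 type cells, and Trdc encodes the constant region of the delta chain itself.

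Each of the 9 DN3 libraries had a total of 7426834 to 21808512 counts, and each of the 9 DP libraries 5032273 to 24191044. Levels are in CPM, here the counts divided by library size after TMM scaling. The libraries matched their stage labels: Il2ra, the CD25 chain that defines DN3 cells, stood at 256 to 632 CPM in DN3 and 1.26 to 41.2 CPM in DP libraries, and Ptcra, the pre-T alpha chain, at 221 to 590 CPM against 36.7 to 128 CPM. The DN3 turnover library RP1141B stood apart, with 134.9 CPM of Cd4, 385 CPM of Cd8a and 615 CPM of Cd8b1, where the other 3 turnover DN3 libraries held at most 1.96, 7.34 and 24.7 CPM. The 5 autonomy DN3 libraries held 38.9 to 71.6 CPM of Cd8a, above those 3 libraries and below RP1141B. For the tested members, changes in DN3 cells and between stages in turnover are given with and without it. The labels do not say that the libraries of a group came from separate animals, and A and B libraries share a number. The p-values therefore describe the spread of these libraries, which may be technical.

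Promoters are shown for the members that were lower in autonomous DN3 cells and have an entry in the RefSeq promoter table of build GRCm38.p6, which holds 6 of the 10 members. Of the 4 members that fell, 5830411N06Rik and Il17rb have one (for 5830411N06Rik the first of 3 listed starts is shown), and each sequence covers the 250 bases before the annotated start, on the strand of the gene. They were searched on both strands for ACAAT and ACAAAG, which HMG-box proteins such as the Sox, TCF and LEF factors can bind, and for CANNTG, the E-box that E proteins can bind. Capitals mark the matches.
5830411N06Rik, chr7:140247051-140247300, plus strand: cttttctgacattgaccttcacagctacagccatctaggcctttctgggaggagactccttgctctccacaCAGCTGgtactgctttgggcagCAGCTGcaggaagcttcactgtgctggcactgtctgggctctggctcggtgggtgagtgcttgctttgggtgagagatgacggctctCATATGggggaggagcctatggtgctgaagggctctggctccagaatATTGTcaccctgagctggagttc
Il17rb, chr14:30008897-30009146, minus strand: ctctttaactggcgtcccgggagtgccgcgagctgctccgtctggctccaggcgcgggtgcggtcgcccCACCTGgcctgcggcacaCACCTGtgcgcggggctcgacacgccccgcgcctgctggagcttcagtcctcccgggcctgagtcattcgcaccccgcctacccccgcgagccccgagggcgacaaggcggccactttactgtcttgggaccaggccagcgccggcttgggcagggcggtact
The 5830411N06Rik window holds 1 ACAAT, read on the opposite strand as ATTGT, and 3 E-boxes, with no ACAAAG. The windows before its other 2 listed starts each hold 1 ACAAAG, 1 ACAAT and 2 E-boxes. The Il17rb window holds 2 E-boxes and neither of the other motifs. The same motifs stand in 27.7% (ACAAT), 16.5% (ACAAAG) and 66.2% (CANNTG) of the 32851 RefSeq promoter windows of this length, so each match is a description of these letters only.

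The first comparison asked how the program differs in DN3 cells when a graft runs on its own cells. The transcripts of 5830411N06Rik, Blk, Trdc and Il17rb fell in autonomy, and no member rose. The losses ran from 1.75-fold for Il17rb to 11.1-fold for 5830411N06Rik between group means, with 3.09-fold for Blk and 2.80-fold for Trdc. Sox13, an HMG-box factor whose name is closely tied to the lineage, had a change within the spread of its libraries. Of the 10 members, 7 had enough reads to be tested, and 4 of these 7 were lower at an adjusted p under 0.05, where 8.35% of the 10766 genes tested in DN3 were lower, 6.53% were higher and 14.9% were called in either direction. The median log2 change of the 7 tested members was −1.49, against −0.05 for all genes tested. The 7 include Rora (−2.84), which entered the test through its turnover libraries. The members were also chosen with earlier results known, so the count and the median are descriptions only.

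**Figure D1:**
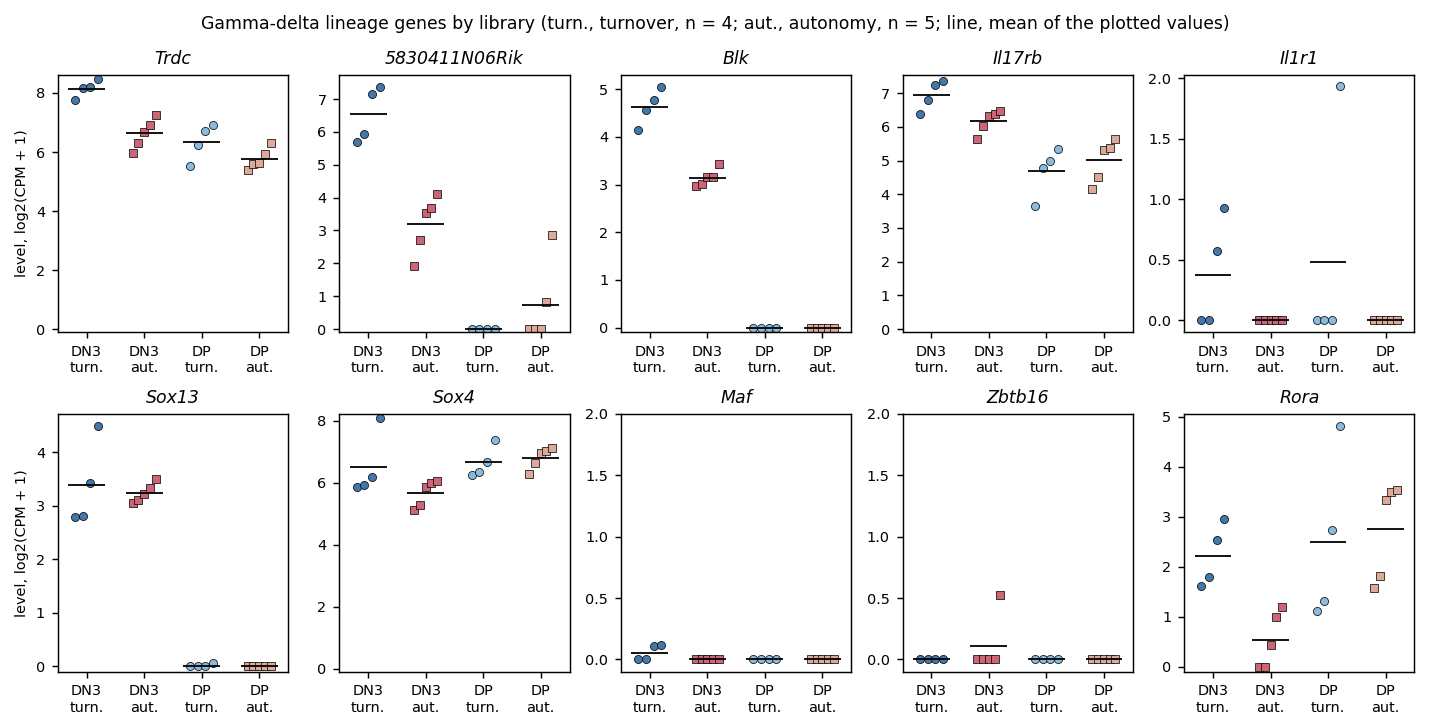
Level of each of the 10 genes in every library, as log2(CPM + 1), 1 point per library, with turnover (n = 4) and autonomy (n = 5) groups of DN3 and DP cells side by side and a line at the mean of the plotted values. The axes differ between panels. For 5830411N06Rik, Trdc, Blk and Rora, all DN3 turnover libraries lie above the DN3 autonomy libraries. Maf and Zbtb16 lie at or near 0 throughout, and Il1r1 reaches 2.82 CPM in DP turnover RP1141B.

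Trdc (ENSMUSG00000104876, chr14:54142851-54148868, plus strand, GRCm38) lies inside the T-cell receptor alpha locus and gives the constant exons of the delta chain. In DN3 turnover its level was 353 CPM in RP1140A, 216 in RP1140B, 286 in RP1141A and 294 in RP1141B. In DN3 autonomy it was 77.8 CPM in RP1133, 62.2 in RP1134, 152 in RP1135, 120.4 in RP1137 and 101 in RP1138. Every turnover library was above every autonomy library, with the highest autonomy library, RP1135, still below the lowest turnover library. Trdc fell by 1.49 on the log2 scale (SE 0.24, adjusted p = 0.00201, edgeR quasi-likelihood test), and without RP1141B the change was −1.48 (adjusted p = 0.00561). Its exons share 207 bases with Trdv5, a delta variable gene on the opposite strand. Trdv5 itself stood at 17.6 ± 2.64 CPM (SD, n = 4) in turnover and 8.67 ± 4.32 CPM (SD, n = 5) in autonomy, a log2 change of −1.03 with an adjusted p of 0.0609, and is named for this overlap. The sources used here do not say if reads were counted by strand. In bulk RNA, fewer cells of a type and less RNA per cell cannot be told apart, for this gene and for all that follow.

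5830411N06Rik (ENSMUSG00000054672, chr7:140247284-140300736, plus strand) encodes a surface protein with scavenger receptor cysteine-rich domains, found on gamma-delta cells committed to IL-17. Its level in DN3 turnover was 142 CPM in RP1140A, 165 in RP1140B, 60.7 in RP1141A and 50.2 in RP1141B. In DN3 autonomy it was 10.6 CPM in RP1133, 5.50 in RP1134, 2.78 in RP1135, 11.8 in RP1137 and 16.2 in RP1138. The lowest turnover library exceeded the highest autonomy library, and within turnover the RP1140 libraries were both above the RP1141 libraries. The change was −3.47 on the log2 scale (SE 0.48, adjusted p = 0.000862), and −3.69 without RP1141B (adjusted p = 0.00103). The promoter printed first above belongs to this gene. Its family member Cd163l1, named here after its values were seen, stood at 39.5 ± 19.0 CPM (SD, n = 4) in turnover and 25.7 ± 14.2 CPM (SD, n = 5) in autonomy, with a log2 change of −0.63 that did not pass the test (adjusted p = 0.289). The authors' counting may assign reads from stretches shared by related genes to either one.

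Blk (ENSMUSG00000014453, chr14:63372836-63417037, minus strand) is a Src family kinase used by B cells and by developing IL-17 type gamma-delta cells. Its DN3 turnover levels were 32.2 CPM in RP1140A, 22.6 in RP1140B, 16.6 in RP1141A and 26.2 in RP1141B. Its DN3 autonomy levels were 6.81 CPM in RP1133, 7.87 in RP1134, 7.05 in RP1135, 9.85 in RP1137 and 7.87 in RP1138. The groups did not overlap, and the autonomy libraries lay closely together. Blk fell by 1.64 on the log2 scale (SE 0.26, adjusted p = 0.00189), and by 1.60 without RP1141B (adjusted p = 0.00577). Since Blk is also a B-cell gene, the B-cell markers are given beside it: Cd79a, Ms4a1 and Pax5 had no reads in any of the 4 DN3 turnover libraries, the group in which Blk was high. The 8 listed B-cell markers summed to 681 to 1518 CPM in DN3 turnover and 674 to 1367 CPM in DN3 autonomy, ranges that overlap. Of these, 2 could be tested: Cd79b fell by 1.48 (adjusted p = 0.00975) and Ighm had a change of 0.12 (adjusted p = 0.772), and their part in the fall of Blk was not tested.

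Il17rb (ENSMUSG00000015966, chr14:29996135-30008896, minus strand) encodes the subunit that binds IL-25. In DN3 turnover it measured 149.9 CPM in RP1140A, 164 in RP1140B, 110.3 in RP1141A and 82.2 in RP1141B. In DN3 autonomy it measured 82.7 CPM in RP1133, 78.3 in RP1134, 88.5 in RP1135, 64.2 in RP1137 and 49.0 in RP1138. RP1141B of turnover lay within the autonomy range, and the other 3 turnover libraries lay above it. Il17rb fell by 0.81 (SE 0.23, adjusted p = 0.0306), the smallest of the 4 called changes. This call was lost without turnover RP1140A (adjusted p = 0.0980), turnover RP1140B (0.0853), autonomy RP1137 (0.0803) or autonomy RP1138 (0.0704), while without RP1141B the change was −0.97 (adjusted p = 0.0144). Its exons share 141 bases with Actr8 on the opposite strand.

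Il1r1 (ENSMUSG00000026072), the signalling receptor for IL-1, was too low to be tested in any comparison. In DN3 turnover it had 7 reads in RP1140B and 11 reads in RP1141B, and 0 reads in RP1140A and RP1141A. All 5 DN3 autonomy libraries were at 0, where 3 counts would correspond to 0.156 to 0.446 CPM. In DP cells the 27 reads of turnover RP1141B, or 2.82 CPM, were the only reads. Reads of Il1r1 were thus confined to 3 of the 18 libraries, all of them turnover.

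Sox13 (ENSMUSG00000070643, chr1:133382303-133424377, minus strand) was detected in all 9 DN3 libraries at a low level. In turnover it was 6.01 CPM in RP1140A, 21.5 in RP1140B, 9.76 in RP1141A and 5.90 in RP1141B. In autonomy it was 10.3 CPM in RP1133, 7.28 in RP1134, 9.03 in RP1135, 7.62 in RP1137 and 8.34 in RP1138. The autonomy libraries lay inside the turnover range, which was stretched by RP1140B. The log2 change was −0.35 (SE 0.39, adjusted p = 0.576), and it turned to 0.22 (adjusted p = 0.700) without RP1140B and was −0.55 (adjusted p = 0.367) without RP1141B. Sox13 transcripts therefore did not differ between the groups by more than the spread between libraries.

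Sox4 (ENSMUSG00000076431, chr13:28948919-28953713, minus strand), a broadly used HMG-box factor, was detected in all 18 libraries. In DN3 turnover it was 57.9 CPM in RP1140A, 270.0 in RP1140B, 72.6 in RP1141A and 59.9 in RP1141B. In DN3 autonomy it was 33.5 CPM in RP1133, 63.0 in RP1134, 57.2 in RP1135, 38.1 in RP1137 and 66.5 in RP1138. The groups overlapped, and 1 library, RP1140B, was several-fold above the rest. The log2 change of −1.16 (SE 0.42) did not pass the test (adjusted p = 0.0822), and it was −0.31 without RP1140B and −1.37 without RP1141B (adjusted p = 0.0546). RP1140B was the highest of the 4 DN3 turnover libraries for Sox13, Sox4, 5830411N06Rik and Il17rb, and the lowest for Trdc. The authors' deposited table gives Sox4 a log2 change of −1.13 with an adjusted p of 0.0333, past the threshold.

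Rora (ENSMUSG00000032238, chr9:68653786-69388246, plus strand), the nuclear receptor RORalpha, was low in DN3 cells. Its turnover levels were 2.06 CPM in RP1140A, 4.82 in RP1140B, 2.46 in RP1141A and 6.72 in RP1141B. Its autonomy levels were 0.354 CPM in RP1133, 0 in RP1134, 1.29 in RP1135, 0 in RP1137 and 0.991 in RP1138. Every turnover library was above every autonomy library, yet the change of −2.84 (SE 0.91) missed the threshold (adjusted p = 0.0530). With 26 to 82 reads per turnover library and at most 19 in an autonomy library, Rora entered the test through its turnover libraries. It passed without autonomy RP1135 (−3.36, adjusted p = 0.0368) and in the authors' deposited table (−2.87, adjusted p = 0.0120), and was −2.48 without RP1141B (adjusted p = 0.124). Non-overlapping, lower autonomy libraries as seen for Blk, Trdc and 5830411N06Rik were found for 10.1% of the genes tested in DN3, and Rora is not counted with them because of how it entered the test.

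Maf (ENSMUSG00000055435) and Zbtb16 (ENSMUSG00000066687), the factors c-Maf and PLZF of effector and innate-like programs, were at the edge of detection. Maf had 1 read in DN3 turnover RP1140A and 1 read in RP1141B, and 0 reads in the other 16 libraries. Zbtb16 had 5 reads in DN3 autonomy RP1133, 0.442 CPM, and 0 reads in the other 17 libraries. No difference between groups was detectable for these genes at this depth.

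**Figure D2:**
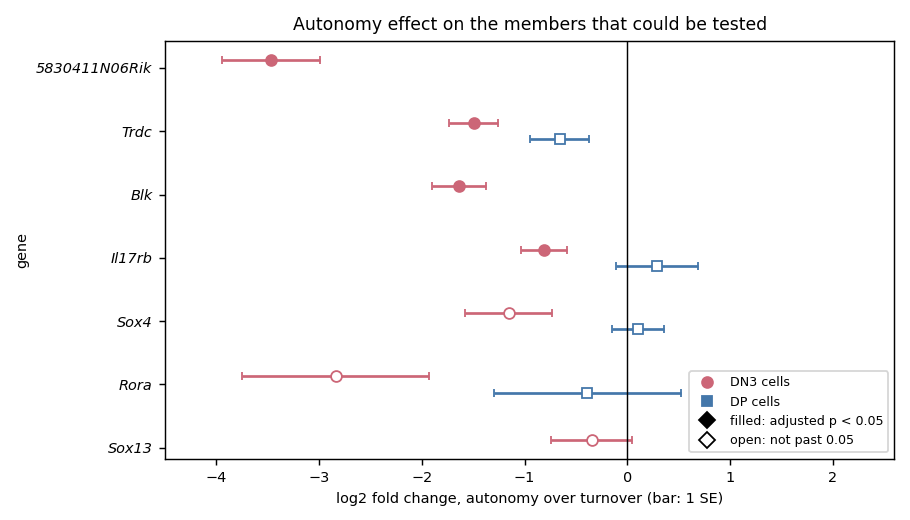
Log2 fold change of autonomy over turnover for each gene that could be tested, in DN3 cells (circles) and DP cells (squares), with bars of 1 SE from the edgeR fits and filled symbols where the adjusted p was under 0.05. In DN3 cells 5830411N06Rik, Trdc, Blk and Il17rb are filled and all lie below 0; no DP symbol is filled.

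Per kilobase of exon, the order of levels in DN3 turnover was Trdc (74.3 ± 14.6 CPM per kb, SD, n = 4), Il17rb (34.2 ± 10.1), Sox4 (24.0 ± 21.6), 5830411N06Rik (18.9 ± 10.4), Blk (9.05 ± 2.43), Sox13 (2.50 ± 1.70) and Rora (0.307 ± 0.167), with Il1r1, Maf and Zbtb16 below these. The median gene tested in DN3 stood at 7.57 CPM per kb. Trdc lay above Il17rb without overlap and met the range of Sox4 through RP1140B alone (55.8 CPM per kb for Trdc and 56.3 for Sox4). The ranges of Il17rb, Sox4, 5830411N06Rik and Blk overlapped from each to the next, and those of Blk, Sox13 and Rora did not. In DN3 autonomy, Trdc (26.6 ± 9.13 CPM per kb, SD, n = 5), Il17rb (19.6 ± 4.30) and Sox4 (10.8 ± 3.11) overlapped from each to the next. Blk (2.92 ± 0.44) lay below them and above Sox13 (1.97 ± 0.28). The range of 5830411N06Rik (1.70 ± 0.96), which was above that of Sox13 in turnover, overlapped both Blk and Sox13 in autonomy.

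The wider gamma-delta receptor loci moved in both directions in DN3 cells. Of 23 listed delta and gamma segments other than Trdc, 19 were in the count table and 15 were tested; 3 rose, 4 fell and 8 did not pass the test, with a median log2 change of −0.56 against −0.05 for all genes. The gamma variable gene Tcrg-V3 rose by 2.35 (SE 0.32, adjusted p = 0.000832), from 10.01 ± 4.58 to 51.2 ± 11.9 CPM. Tcrg-V1 rose by 2.01 (SE 0.16, adjusted p = 3.77e-05), from 50.8 ± 4.26 to 205.7 ± 26.7 CPM. The delta segments Trdj1 and Trdv2-2 fell by 2.49 and 1.51, with adjusted p-values of 0.0187 and 0.0178, as did the abundant constant gene Tcrg-C1, named after its values were seen, by 1.10 (adjusted p = 0.00232). Segments of these loci are short and alike, so reads can be split between them. The 4 falls became 1 with A and B libraries summed or with all 18 libraries in the fit, and 2 without turnover RP1140A or RP1141B, while 3 segments rose in every fit that left out 1 library.

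Genes of the signal that directs the lineage choice also moved unevenly in DN3 cells. Of 16 tested genes in this list 12 did not pass, 1 was higher and 3 were lower, and the median log2 change was −0.45. Over all genes tested in DN3, 6.53% were higher and 8.35% were lower, the shares to set beside the counts of every wider list given here. Egr1, an immediate target of receptor signals, fell by 1.68 (adjusted p = 0.0420) and the kinase Syk by 1.10 (adjusted p = 0.0464), while the kinase Zap70 rose by 0.83 (adjusted p = 0.0224). Id3, the E-protein inhibitor that strong gamma-delta signals induce, had a change of 0.22 (adjusted p = 0.498), and was named after its values were seen. No gene of this list passed without turnover RP1140A or with A and B libraries summed. No gene rose without turnover RP1140B or RP1141A or autonomy RP1137 or RP1138, and with any single library other than RP1140A left out 1 or 2 fell.

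Among HMG-box and other lineage factors, 12 were tested: 2 were higher, 2 were lower and the median was −0.16. Lef1, an HMG-box factor of the TCF family, rose from 219 ± 28.1 CPM (SD, n = 4) to 373 ± 48.4 CPM (SD, n = 5), a log2 change of 0.76 (SE 0.15, adjusted p = 0.00542). Id2 rose by 1.20 (adjusted p = 0.0110). Bcl11b, which holds cells in the T lineage, fell by 1.05 (adjusted p = 0.00422), and Hes1, a Notch target, by 0.88 (adjusted p = 0.0355). With single libraries left out, 2 genes rose in every fit and between 1 and 4 fell. With A and B libraries summed 1 rose and 1 fell, and with all 18 libraries in the fit 1 rose and 2 fell.

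For the IL-17 effector list, 11 genes were tested, 4 of them were lower, 0 were higher, and the median was −0.63. The chemokine receptor Ccr2 fell by 3.18 (SE 0.92, adjusted p = 0.0358) from 5.28 ± 3.16 to 0.556 ± 0.750 CPM, and Tmem176b fell by 1.89 (SE 0.57, adjusted p = 0.0425) from 90.8 ± 26.1 to 24.6 ± 15.0 CPM. Ccr2 entered the test through its turnover libraries, where it was high, so nothing is read from its place among the falls. The count of falls was 0 with all 18 libraries in the fit, 1 with A and B libraries summed, 1 without turnover RP1140A or RP1140B or without autonomy RP1133, RP1137 or RP1138, and 2 without turnover RP1141A or RP1141B, the latter with 1 rise. The interferon-gamma effector list had 3 tested genes, of which Tbx21, the factor T-bet, rose by 2.33 (adjusted p = 0.0269) and Nkg7 and Cd27 fell by 2.93 and 0.83 (adjusted p = 0.0134 and 0.0178). No gene of that list rose without turnover RP1140A or RP1141B or autonomy RP1133, and 1 fell without autonomy RP1137. Of the innate-like T list, 6 genes were tested and 3 were higher, among them the SLAM pathway genes Fyn (1.01, adjusted p = 0.0431) and Slamf6 (0.75, adjusted p = 0.0362). The rises numbered 0 without turnover RP1140A, 4 (with 1 fall) without turnover RP1141B and 1 without turnover RP1140B or RP1141A or autonomy RP1133, RP1135 or RP1137. Partners of the member receptors gave 2 falls among 6 tested genes, Il17ra (−0.81, adjusted p = 0.0163), the chain that pairs with Il17rb, and the adaptor Traf3ip2 (−0.77, adjusted p = 0.0197), with both lost without turnover RP1140A and 1 fall left without autonomy RP1138. With A and B libraries summed, the interferon-gamma, innate-like and partner lists had 0 calls.

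**Figure D3:**
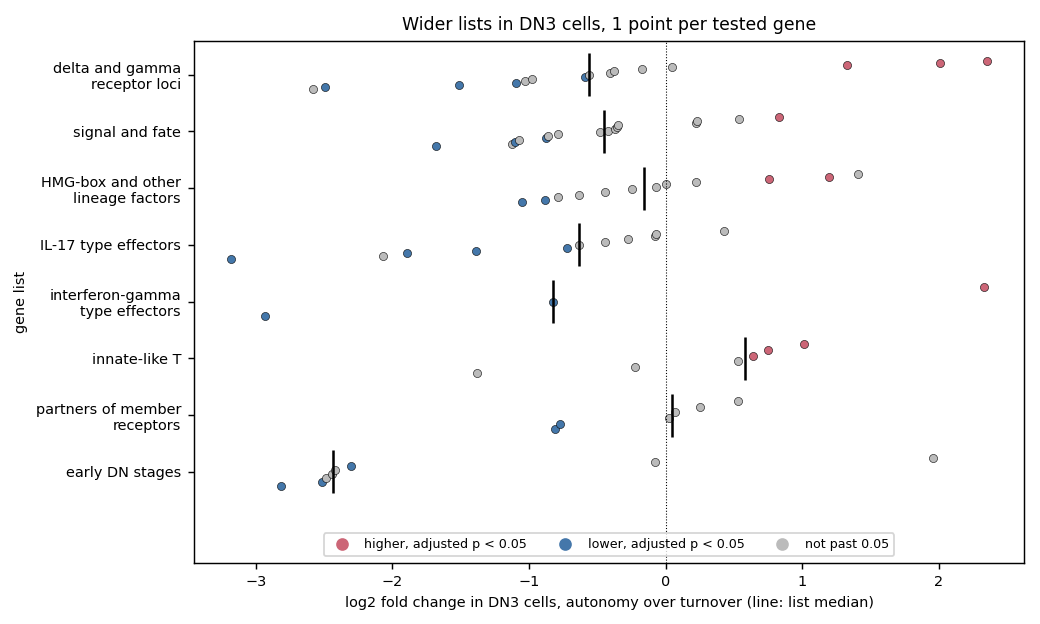
Log2 fold change in DN3 cells, autonomy over turnover, for each tested gene of 8 wider lists, coloured by whether the adjusted p was under 0.05, with a vertical line at each list's median. The IL-17 effector and early double-negative lists hold falls and no rises, and the receptor loci hold 3 rises and 4 falls.

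Summed markers of some other cells differed between the DN3 groups without overlap, and those of others overlapped. The 13 markers of stages before DN3 summed to 170 to 221 CPM in turnover and 10.3 to 70.6 CPM in autonomy. Of 8 tested, 3 fell: Cpa3, Nfe2 and Kit, by 2.81, 2.51 and 2.31, with adjusted p-values of 0.00786, 0.0121 and 0.00789 (Kit was named after its values were seen). The 3 falls became 1 with all 18 libraries in the fit and 2 with A and B libraries summed. Gata2 was at 0 in turnover, and Lmo2 and Meis1 were at 0 in autonomy. The 10 myeloid markers summed to 17.3 to 36.4 CPM in turnover and 2.03 to 12.1 CPM in autonomy, with C1qc, Adgre1, Itgam and Elane at 0 in turnover. Both sums were higher in every turnover library than in any autonomy library, as were Blk, Rora, Trdc and 5830411N06Rik, and their part in the falls of the members was not tested. The 12 innate lymphoid markers summed to 41.8 to 50.6 CPM in turnover and 45.3 to 72.5 CPM in autonomy, ranges that overlap, and Il13, Areg and Klrg1 were at 0 in both. The 8 dendritic-cell markers also overlapped, with sums of 229 to 320 CPM in turnover and 119 to 359 CPM in autonomy. Of 2 tested, H2-Ab1 fell by 1.96 (adjusted p = 0.0115) and Bst2 did not pass (−0.17, adjusted p = 0.685). Stromal markers (10) summed to 189 to 221 CPM in turnover and 76.5 to 147 CPM in autonomy, with Pdgfra and Krt5 at 0 in both. The 7 NK-cell markers summed to 1225 to 1702 CPM and 1834 to 2523 CPM, with Klrd1 at 0 in both, Ncr1 at 0 in turnover and Klrb1c at 0 in autonomy. Neither sum overlapped between the groups, and their part was not tested either. Only 2 NK-cell markers could be tested, and they moved in opposite directions. Gzma rose by 0.64 (adjusted p = 0.0194) and Nkg7 fell by 2.93 (adjusted p = 0.0134). The NK-cell list had 0 calls with all 18 libraries in the fit or with A and B libraries summed. Without turnover RP1140A it had 0 rises and 1 fall. Markers of the DP stage summed to 1179 to 3098 CPM in turnover, highest in RP1141B, and 802 to 1531 CPM in autonomy. Of these 10 markers 0 rose and 4 fell, and without RP1141B 4 rose and 4 fell. The 10 markers of the DN3 stage itself summed to 8385 to 9941 CPM in turnover and 4673 to 8887 CPM in autonomy, ranges that overlap. Of these, 1 rose, Dtx1 (1.30, adjusted p = 0.00990), and 3 fell, among them Dntt (−0.96, adjusted p = 0.00367). With A and B libraries summed 0 rose and 1 fell, and without turnover RP1140A 1 rose and 1 fell.

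**Figure D4:**
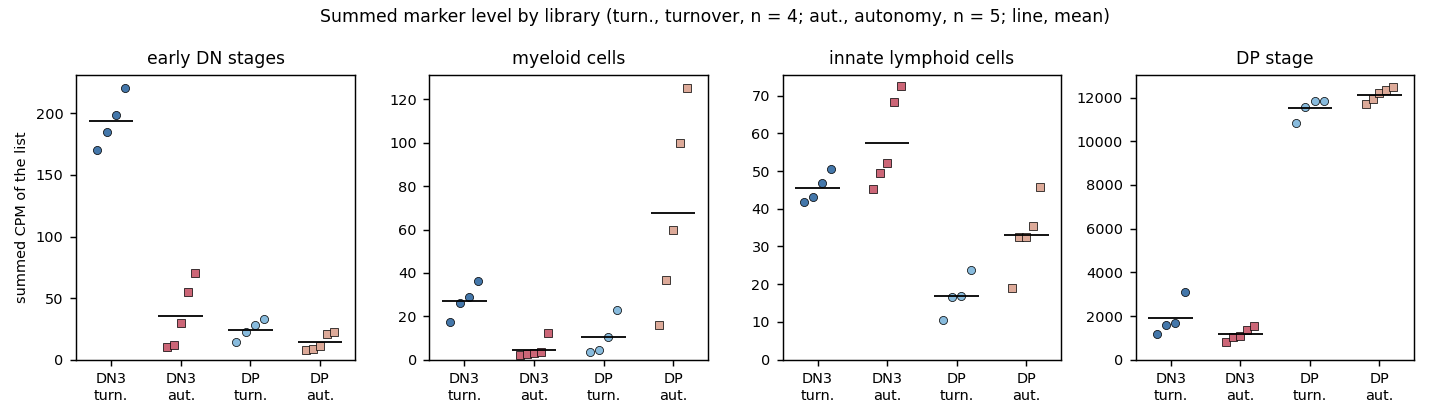
Summed CPM of 4 marker lists in every library, 1 point per library, by stage and by turnover (n = 4) or autonomy (n = 5), with a line at each mean and a separate axis for each list. Early double-negative and myeloid markers are higher in all DN3 turnover libraries than in any DN3 autonomy library, while innate lymphoid markers overlap.

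The second comparison put the same question to DP cells. There 4 of the 10 members could be tested and none passed, where 1.72% of the 10339 genes tested were called, 0.861% in each direction. In this fit with edgeR 1 member, Trdc, had an unadjusted p under 0.05, and the counts with DESeq2 and with limma voom were also 0. Trdc was 119.7 CPM in turnover RP1140A, 73.7 in RP1140B, 44.7 in RP1141A and 104.9 in RP1141B. It was 59.8 CPM in autonomy RP1133, 40.9 in RP1135, 77.3 in RP1136, 48.6 in RP1137 and 47.4 in RP1138. The groups overlapped, and the log2 change was −0.66 (SE 0.29, unadjusted p = 0.0402, adjusted p = 0.266).

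Il17rb in DP cells was 26.4 CPM in turnover RP1140A, 11.6 in RP1140B, 39.9 in RP1141A and 30.4 in RP1141B. In DP autonomy it was 40.1 CPM in RP1133, 17.0 in RP1135, 21.9 in RP1136, 48.8 in RP1137 and 39.0 in RP1138. The ranges overlapped almost wholly, with a log2 change of 0.29 (SE 0.40, adjusted p = 0.778). Sox4 ranged from 75.6 to 165.5 CPM in DP turnover and from 77.9 to 139.5 CPM in DP autonomy, with a log2 change of 0.10 (SE 0.25, adjusted p = 0.885).

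Rora in DP turnover was 5.68 CPM in RP1140A, 27.2 in RP1140B, 1.47 in RP1141A and 1.15 in RP1141B. In DP autonomy it was 10.6 CPM in RP1133, 9.13 in RP1135, 1.97 in RP1136, 2.50 in RP1137 and 10.3 in RP1138. RP1140B was above all the others, and the change of −0.39 (SE 0.91, adjusted p = 0.876) turned to 1.30 (adjusted p = 0.592) without it. Rora was thus uneven among libraries of the same group in DP cells.

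Blk had 0 reads in all 9 DP libraries, which allows at most 0.114 to 0.568 CPM per library at 3 counts, for counting error only. Sox13 had 1 read in DP turnover RP1140B and 0 in the other 8 DP libraries. 5830411N06Rik had 0 reads in all 4 DP turnover libraries, and in DP autonomy it had 33 reads in RP1133 (6.25 CPM), 5 reads in RP1138 (0.755 CPM) and 0 reads in the other 3. The low levels of these genes kept them out of the DP test. Among the wider gamma-delta lists, Lck (0.38, adjusted p = 0.0163), Cd3g (0.69, adjusted p = 0.0190) and Slamf6 (0.49, adjusted p = 0.0406) rose in DP cells, and Tcf12, an E protein, fell by 0.52 (adjusted p = 0.0481). None of the lists that hold these genes had a call in DP without turnover RP1140B, with A and B libraries summed or with all 18 libraries in the fit. With single libraries left out, the list of Tcf12 kept a fall only without autonomy RP1138, and the list of Slamf6 a rise only without autonomy RP1136 or RP1138. Of the stage and other-cell markers, Dtx1 (2.99, adjusted p = 0.0160) and Cd8b1 (0.50, adjusted p = 0.0301) rose in DP and Dntt fell by 0.39 (adjusted p = 0.0163). Dtx1 also rose and Dntt also fell in DN3 cells (1.30 and −0.96, adjusted p = 0.00990 and 0.00367). C1qc, a macrophage gene with 0 reads in all DP turnover libraries, was higher in DP autonomy (adjusted p = 0.00935). It entered the test through its DP autonomy libraries, so nothing is read from this call. C1qa and C1qb did not pass (adjusted p = 0.451 and 0.158).

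Whether the effect of autonomy differed between the stages was tested in 1 fit of all 18 libraries. Of the members, only 5830411N06Rik passed (adjusted p = 0.0143), where 5.49% of 11521 genes were called, 2.88% with a higher log2 change in DP and 2.61% with a lower one. The same library, DP autonomy RP1133, held the highest sums of its group for the gamma-delta receptor list (123 CPM, against 39.5 to 72.7 CPM) and for the myeloid markers (125 CPM, against 16.2 to 99.7 CPM), whose part was not tested. The fitted difference of 5830411N06Rik has no interpretable size, since all DP turnover libraries were at 0, and it rests on DP autonomy RP1133 and RP1138: the adjusted p was 0.0767 without DP autonomy RP1133 and 0.190 with limma voom. The differences, DP minus DN3, did not pass for Sox4 (1.27, SE 0.55, adjusted p = 0.201), Il17rb (1.11, SE 0.47, adjusted p = 0.189), Trdc (0.84, SE 0.39, adjusted p = 0.240) or Rora (2.47, SE 1.41, adjusted p = 0.352). So the falls of Trdc and Il17rb in DN3 cells are not shown to differ from their changes in DP cells. No difference could be estimated for Blk and Sox13, which had at most 1 read in DP cells.

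Between the stages, Sox13, Blk and 5830411N06Rik were all but undetected in DP turnover, while Trdc, Il17rb, Sox4 and Rora had reads in every DP library. In turnover, 5 of 7 tested members were lower in DP than in DN3 and none was higher, where 19.1% of 11521 genes were lower, 15.8% higher and 34.9% either. Blk, 5830411N06Rik and Sox13, with at most 1 read in DP turnover, entered this test through their DN3 libraries, so nothing is read from the count of 5. Blk was at least 93.1-fold lower and 5830411N06Rik at least 399-fold lower in DP, against a floor of 3 counts per library (adjusted p = 5.67e-07 and 5.14e-05). Sox13, with 1 DP read, was higher in DN3 by a ratio of 657 (95% exact interval 117 to 25974, from pooled reads, counting error only; adjusted p = 4.96e-06). Il17rb fell by 2.23 (SE 0.36, adjusted p = 9.79e-05) and Trdc by 1.75 (SE 0.30, adjusted p = 0.000161), and both stayed detected in all 9 DP libraries. Without DN3 RP1141B the changes of Il17rb and Trdc were −2.35 and −1.70, and Blk, 5830411N06Rik and Sox13 had adjusted p-values of 2.29e-06, 8.21e-05 and 6.76e-06. Sox4 (−0.12, SE 0.41, adjusted p = 0.846) and Rora (1.15, SE 1.04, adjusted p = 0.426) did not pass, and Sox4 was 0.73 (adjusted p = 0.0630) without DN3 RP1140B. Without DN3 RP1141B they were −0.30 and 1.56.

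In autonomy the same 5 members were lower in DP, and Sox4 and Rora were higher, where 25.2% of genes were lower, 23.7% higher and 49.0% either. Sox13 and Blk, with 0 reads in DP autonomy, entered this test through their DN3 libraries. Rora, low in DN3 autonomy, entered it mainly through the other groups, so nothing is read from these counts. The DP and DN3 samples of the 2 conditions are different libraries. Sox13 was at least 23.7-fold and Blk at least 22.0-fold lower in DP (adjusted p = 5.06e-07 and 2.50e-07). Il17rb fell by 1.12 (SE 0.32, adjusted p = 0.00618) and Trdc by 0.91 (SE 0.27, adjusted p = 0.00760). 5830411N06Rik fell by 3.05 (SE 1.02, adjusted p = 0.0196), and its change was −6.17 without DP autonomy RP1133. Sox4 rose by 1.14 (SE 0.37, adjusted p = 0.0148) and Rora by 3.62 (SE 1.04, adjusted p = 0.00664), and the DP libraries of both genes were all above the DN3 libraries, as for 17.1% of genes tested.

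Per kilobase, Trdc (22.2 ± 8.65 CPM per kb, SD, n = 4) and Sox4 (22.0 ± 8.64) had overlapping levels at the top of the set in DP turnover, above Il17rb (7.31 ± 3.17) and Rora (0.680 ± 0.949). In DP autonomy Sox4 (23.8 ± 5.33, SD, n = 5), Trdc (14.2 ± 3.70) and Il17rb (9.0 ± 3.6) overlapped from each to the next, and Rora (0.527 ± 0.328) lay below.

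The genes most like Sox13 across the 18 libraries, by Pearson correlation of log2(CPM + 1), were Steap3 (0.991), Ctla4 (0.983) and the gamma segment Tcrg-V7 (0.981). Those most like 5830411N06Rik were Cd59b (0.942), Lfng (0.928) and the member Blk (0.923). The points share the difference between DN3 and DP cells, so the correlations are a description of these libraries.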

How the data were processed

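RNA sequencing of 18 libraries (9 DN3, 9 DP) was deposited as a table of raw counts per gene, with no normalization by the authors. The submitters' processing notes name HISAT2, featureCounts, FastQC and DESeq2 and the builds mm10 and GRCm38; the sources used here give no versions, settings or strand. For each stage there is also a DESeq2 table deposited by the authors, whose log2 fold changes, standard errors on the log2 scale, p-values and adjusted p-values are theirs, per the file headers. The mean signal and the test score (Wald statistic) of those tables were not used, per the file headers naming them.

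The counts were tested with edgeR 4.0.16 (quasi-likelihood, in R 4.3.3), with TMM factors, filterByExpr and Benjamini-Hochberg adjustment over all genes tested, at a threshold of 0.05. Each stage was fitted alone for autonomy against turnover; stage comparisons and the difference of effects used all 18 libraries. CPM used TMM factors over all 18 libraries, exon lengths came from GENCODE M21, and promoters from RefSeq. Floors are 3 counts per library, and intervals and floors cover counting error only. The fits were tested on simulated data. Libraries of 1 group correlated at 0.934 or more in DN3 and 0.918 or more in DP (Pearson, log2 CPM).

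Alternatives were RLE factors, no filter, DESeq2 1.42.0, limma 3.58.1 voom, a fit of all 18 libraries, A and B libraries summed, the replicate block and leaving out each library. The members, the 16 gene lists and the tests were chosen with earlier results of these data known. Named are all members, up to 2 genes per direction and list with the largest change among those past the threshold, the 3 genes most like Sox13 and 5830411N06Rik, and stage markers; others are marked as named after their values were seen. An alignment of the Sox4 and Sox13 proteins was planned and not made.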

Additional observations from a re-analysis of the deposited data

Results flagged for a closer look

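Sox4 in DN3 turnover RP1140B, at 270.0 CPM, was far from the other 3 libraries of its group, which lay between 57.9 and 72.6 CPM. Zbtb16 in DN3 autonomy RP1133, at 0.442 CPM or 5 reads, was the only library of its group with reads. Il1r1 in DP turnover RP1141B, at 2.82 CPM or 27 reads, was likewise the only library of its group with reads. 5830411N06Rik in DP autonomy RP1133, at 6.25 CPM or 33 reads, stood away from the other 4 libraries, of which RP1138 had 5 reads and 3 had none. These samples were far from the others by Dixon's test at the 95% level in 4 of 26 groups tested. The usual chance rate of about 1 in 20 cannot be set beside this count. A group with reads in only 1 library, as for Zbtb16 and Il1r1, is flagged by this test whatever its level. The test of whether the effect of autonomy on 5830411N06Rik differed between DP and DN3 cells passed (adjusted p = 0.0143, edgeR). All DP turnover libraries were at 0 for this gene, so the difference has no interpretable size. The call was lost without DP autonomy RP1133 (adjusted p = 0.0767) and with limma voom (0.190).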

How the results depend on the processing

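The DN3 falls of Blk, Trdc and 5830411N06Rik kept direction and side of the threshold under all 15 alternatives; Il17rb kept its direction under all 15 and lost the threshold under 6, among them the fit of all 18 libraries (adjusted p = 0.139) and A and B summed (0.0908). Rora passed with voom (adjusted p = 0.0353) and DESeq2 (0.0138). Genes called in DN3 numbered 1602, and 1006 with all 18 libraries in the fit, 507 with A and B summed, and 811 (without turnover RP1140A) to 1784 (without autonomy RP1135) when single libraries were left out, with 953 without RP1137. In DP they numbered 178, and 434 with voom, 736 with DESeq2, 279 with all 18 libraries, 16 with A and B summed, and 33 (without turnover RP1140B) to 252 (without autonomy RP1138), with 67, 59, 66 and 98 without turnover RP1141A, turnover RP1141B, autonomy RP1133 and autonomy RP1135. Between stages the single-library range was 3163 to 3940 in turnover and 5144 to 5544 in autonomy, and for the difference of effects 424 to 684, with 1037 by DESeq2. Directions that turned all belonged to changes that did not pass. Sox13 in DN3 ran from −0.55 (without RP1141B) to 0.22 (without RP1140B) when single libraries were left out. Sox4 in DP was −0.022 with A and B summed, and ran from −0.033 (without turnover RP1141B; −0.015 without RP1140A) to 0.40 (without RP1141A), and Rora in DP from −0.76 (without RP1141B) to 1.30 (without RP1140B). For DP against DN3 in turnover, Sox4 was 0.18 with voom, 0.17 with the replicate block, and −0.43 (without DP RP1141A) to 0.73 (without DN3 RP1140B), with 0.014 without DP RP1140A and 0.032 without DP RP1141B, and Rora was −0.53 (without DP RP1140B) to 1.56 (without DN3 RP1141B). The cause of these shifts was not tested.

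Libraries that share a number across stages correlated at −0.03 to 0.06 in their deviations from group means, so the numbers were not taken as pairs. With the replicate block, 3226 genes were called between stages in turnover and 4734 in autonomy, and Il17rb in autonomy was −0.95 (adjusted p = 0.0593). The number is the best match of a library in 2 of 8 cases. Depth limits Maf, Zbtb16 and Il1r1, and Blk, Sox13 and 5830411N06Rik in DP.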

Other observations

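Cytokine genes of gamma-delta effector cells were scarcely detected in any group. Il17a had 0 reads in all 18 libraries, as did Ifng. Il17f had 7 reads in 1 DN3 turnover library and 0 elsewhere, and Il22 had 1 read in 1 DP autonomy library and 0 elsewhere. The IL-23 receptor gene Il23r had 53 reads in 1 DP turnover library, 2 reads in 1 DN3 autonomy library and 0 in the other 16.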
